A study of Homo sapiens with 6 samples.

Results

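The genes described here are 60 genes of mitosis and the mitotic spindle, chosen by name from a table of 61806 genes for their known parts in entry into mitosis, spindle assembly, kinetochores, chromosome separation and cytokinesis. The choice used no threshold on a measured value, but it was made with earlier results of these data known. They were read in the RNA sequencing of 6 libraries of U87-MG, an established cell line from a human glioblastoma, to ask which transcripts differed when GRIK1, a subunit of kainate-type glutamate receptors, was targeted by RNA interference. The 3 libraries of the negative control (NC) carry the genotype label wildtype, and the 3 libraries labelled GRIK1 siRNA carry the label GRIK1 knockdown. The methods give transfection of siRNA and name 3 siRNA sequences, while the deposited design names an shRNA. The labels do not say whether the numbers 1 to 3 of the labelled siRNA libraries stand for replicates of a single siRNA or for different sequences, nor whether the libraries came from separate cultures. The study states that the sequence with the strongest effect on GRIK1 was taken forward to its later experiments, without naming these libraries. The p-values below therefore measure only the spread between these libraries. All 6 libraries come from a single cell line.

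Entry into mitosis is driven by the kinase CDK1 bound to cyclin B, after CDC25 phosphatases remove inhibitory phosphates from it. Chromosomes are then condensed, captured by spindle microtubules at their kinetochores, and held at the metaphase plate until the spindle checkpoint is satisfied and separase cuts cohesin. Most of these genes are transcribed in late S and G2 phase, under the factors MYBL2 and FOXM1 and the MuvB complex, and dividing tumour cells such as glioblastoma lines express nearly all of them.

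Between 11099909 and 14006968 reads were counted on genes per library, and a member had between 13 and 2535 counts in a library. NC library 3 stood apart. Its correlations with the other libraries over the 15870 genes tested reached at most 0.971, whereas the highest correlation of each other library was at least 0.995, and the common dispersion of edgeR, a squared coefficient of variation between libraries, was 0.0391 with it and 0.00298 without it. The counts of calls are therefore given with all 6 libraries and without NC library 3, the latter chosen after the data were seen. GRIK1 had 18, 9 and 8 counts in NC libraries 1 to 3 and 15, 20 and 20 counts in the labelled siRNA libraries. No fall of its mRNA was thus seen there. It lay under the filter on low levels used below and was not tested, so these few counts cannot measure a knockdown. The study reports an efficient knockdown of GRIK1 in U87-MG cells, and directions below are those of the labels. VIM, a mesenchymal marker of the line, had 825 to 1076 FPKM (a level scaled to the length of the gene and the depth of the library), and CDKN2A and MTAP, which the line is known to lack, had at most 0.04 FPKM. FN1 and TNC, a pair of matrix genes of the line, were at 11.6 and 24.8 FPKM in NC library 3, against at least 62.9 and 144 FPKM in each other library. GFAP and NES were at most 0.69 FPKM. PTPRC, a marker of immune cells, was at most 0.03 FPKM. The marker sum of endothelial cells (2 genes) was 0.02 to 0.06 FPKM in NC and 0.02 to 0.05 FPKM in the labelled siRNA libraries, that of epithelial cells (4 genes) 2.25 to 3.02 and 2.34 to 3.23 FPKM, and that of neurons (3 genes) 1.88 to 2.81 and 2.47 to 2.62 FPKM.

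All 60 members had reads in every library. On the scale of FPKM, which allows levels of different genes to be compared, the highest NC means were those of PTTG1, the securin that holds separase inactive, at 23.2 FPKM, UBE2C, the ubiquitin-conjugating enzyme of the anaphase promoting complex, at 21.1 FPKM, and BUB3, a checkpoint protein, at 19.4 FPKM. The lowest were NUSAP1, a spindle microtubule protein, at 0.527 FPKM, ESPL1, which is separase itself, at 0.583 FPKM, and CDC25C, a phosphatase of CDK1, at 0.807 FPKM. The level of NUSAP1 is uncertain, since 62.2% of its exonic bases are shared with another gene on the same strand. Summed over the members, the level was 262, 263 and 309 FPKM in NC libraries 1 to 3 and 254, 257 and 256 FPKM in the labelled siRNA libraries. The labelled siRNA libraries lay below all NC libraries, and NC library 3 lay farther from the other NC libraries than these did from the labelled siRNA libraries. In RNA from whole cultures, fewer cells in mitosis and less RNA per cell cannot be told apart.

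Of the 60 members, 59 passed the filter of a 6-library average of 0.5 FPKM or more. NUSAP1, with 0.5, 0.62 and 0.46 FPKM in NC and 0.49, 0.29 and 0.44 FPKM in the labelled siRNA libraries, did not pass and its groups overlapped. With all 6 libraries, 1 of the 59 members fell and 1 rose at an adjusted p under 0.05 in the quasi-likelihood test of edgeR, against 1.48% and 1.61% of all genes tested. The gene that fell was NCAPG and the gene that rose was KIF20A. KIF20A was also the 1 member past an absolute log2 fold change of 1, a rule that 1.41% of all genes met. At an unadjusted p under 0.05 there were 9 lower and 3 higher members, against 13.2% and 12% of all genes. DESeq2 called 3 members lower (CDC25B, PLK4 and NCAPG) and 2 higher (ESPL1 and KIF20A), against 4.84% and 5.2% of all genes. The share of members called was thus near the background in edgeR and in DESeq2.

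The log2 fold change of the labelled siRNA libraries over NC was below 0 for 45 of the 59 members (76.3%), against 51.4% of all genes, and its median was -0.17, against -0.02 over all genes. The groups did not overlap, with the labelled siRNA libraries lower, for 17 members (28.8%, against 19.0% of all genes) and, with them higher, for 4 members (6.78%, against 19.4%), which were KIF20A, ESPL1, ASPM and NCAPD2. Without NC library 3 the log2 fold change was below 0 for 34 members (57.6%, against 49.3%) and its median was -0.04, against 0.01 over all genes. The groups then did not overlap for 19 lower members (32.2%, against 28.5% of all genes) and 8 higher members (13.6%, against 28.0%). The downward shift of the members seen with 6 libraries was thus smaller without NC library 3.

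Without NC library 3, edgeR called 9 members lower (15.3%), against 18.3% of all genes, and 5 higher (8.47%), against 16.9%. The lower members were CDK1, CDC25B, PLK4, BUB3, CENPF, ECT2, TOP2A, SMC2 and NCAPG. The higher members were KIF20A, ESPL1, ASPM, KIF4A and NCAPD2. None passed an absolute log2 fold change of 1 as well in edgeR, a rule met by 3.09% of all genes, and KIF20A, at a log2 fold change of 1.00, lay at that limit. DESeq2 on the same 5 libraries called 6 members lower and 3 higher, against 13.1% and 12.7% of all genes. It called 1 member (1.69%) at both thresholds, against 2.36% of all genes.

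**Figure D1:**
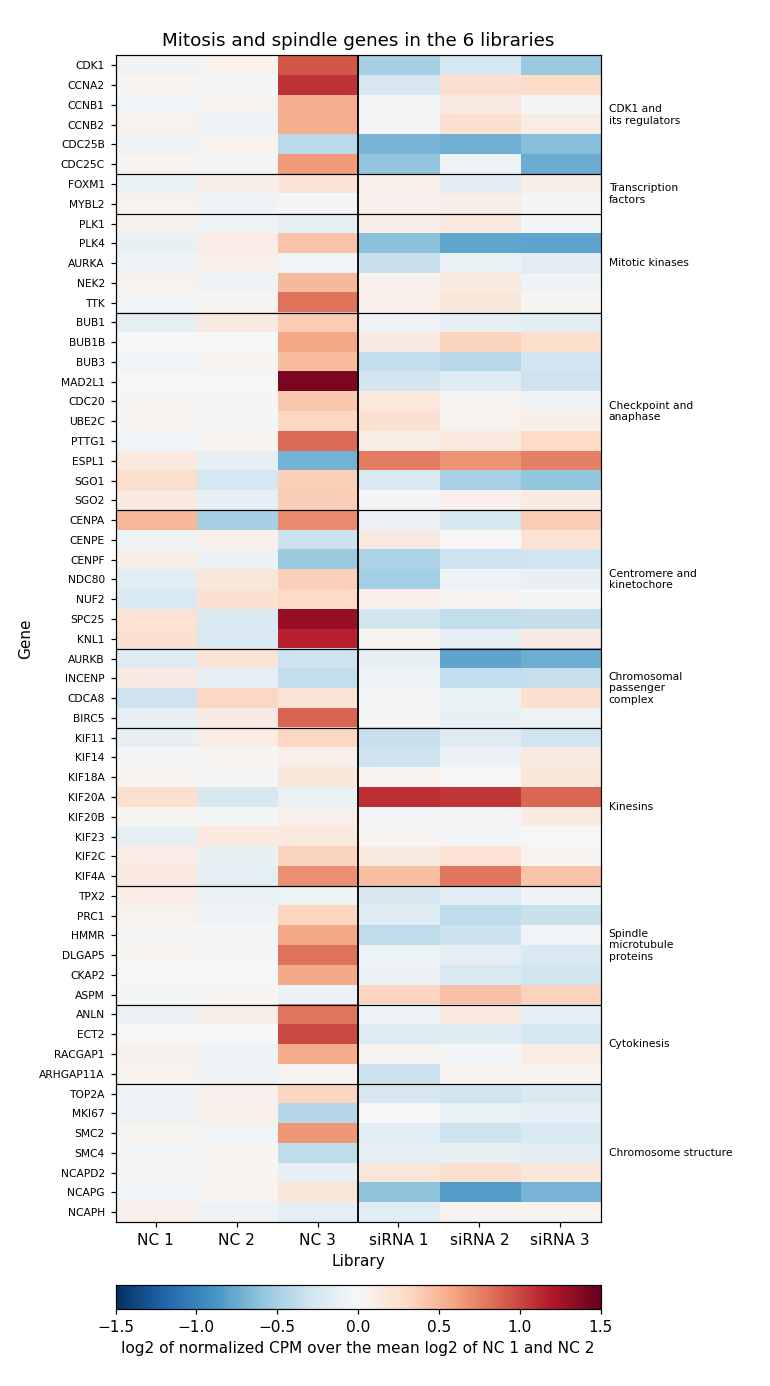
Level of each of the 59 tested members (vertical axis, grouped by role) in each library (horizontal axis), as the log2 of normalized CPM over the mean log2 of NC libraries 1 and 2. NC library 3 is red for most genes, while the labelled siRNA libraries are close to white for most and stand out for KIF20A and ESPL1 (red) and for NCAPG, PLK4 and CDC25B (blue).

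**Figure D2:**
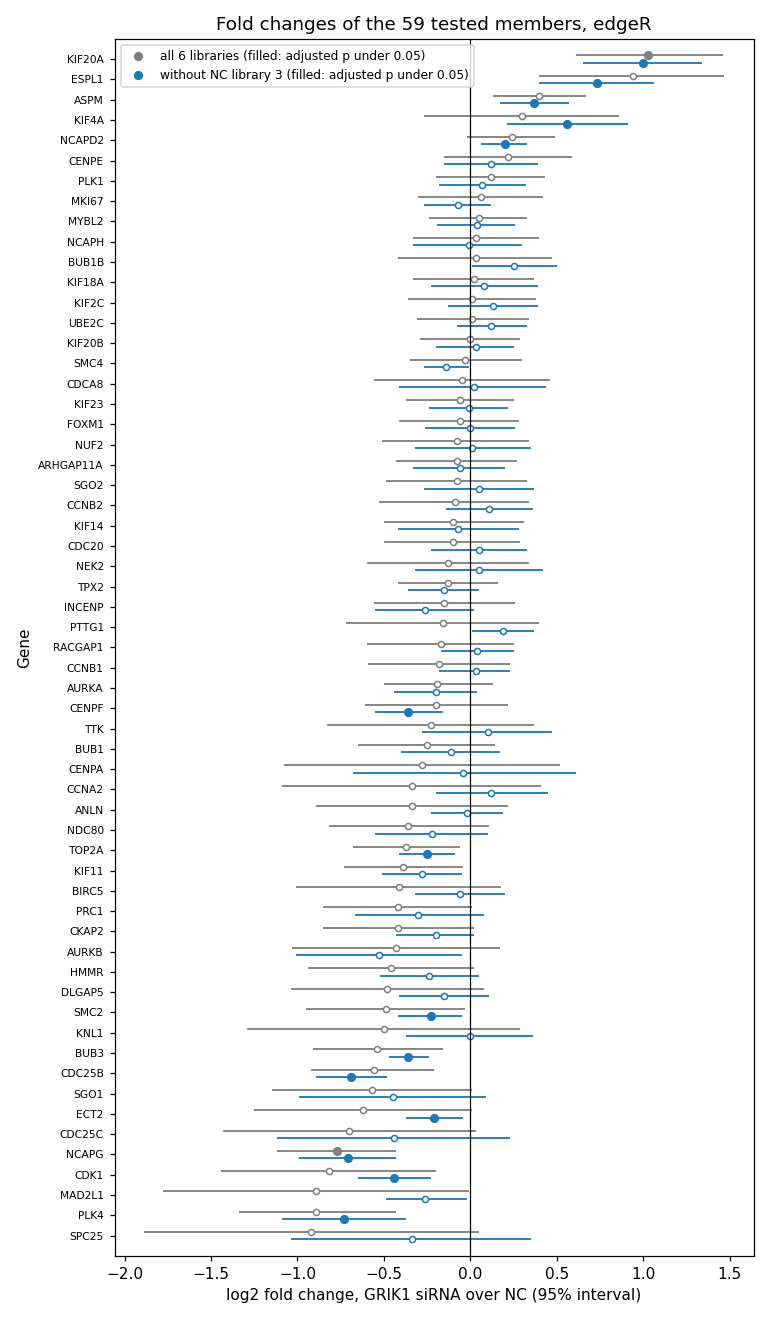
Log2 fold change of the labelled siRNA libraries over NC (horizontal axis) for the 59 tested members (vertical axis), with 95% intervals from edgeR. Grey marks show all 6 libraries and blue marks show the values without NC library 3, filled where the adjusted p was under 0.05, which holds for 2 grey and 14 blue marks.

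The members share promoter sequences that the choice by name did not use. RefSeq promoter windows (GRCh38.p14, from 250 bases before to 50 bases after a start site) were found for 51 of the 60 members, with none matched for FOXM1, AURKA, TTK, BUB3, UBE2C, KNL1, BIRC5, TPX2 and RACGAP1. The cell cycle homology region, TTTGAA or TTTAAA, is the element that MuvB contacts, and the CCAAT box is bound by NF-Y. On either strand, TTTGAA was held by 57.6% of the 66 windows of members and by 15.2% of all 35116 windows. The like shares were 28.8% and 12.2% for TTTAAA, which reads the same on both strands, 72.7% and 24.0% for either of them, and 68.2% and 34.6% for CCAAT. The box at 2 or more places was held by 36.4% of the windows of members and 10.8% of all windows, and CCAAT together with TTTGAA or TTTAAA by 54.5% and 9.3%. The E2F-type letters GCGGGAA were held by 9.1% and 6.6%, and TTTCGCGC or TTTGGCGC by 4.5% and 1.1%. No matches of these motifs overlap each other in the stretches printed below. Windows of a single gene overlap in part, and these shares are descriptions of letters, not of bound sites.

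The 250 bases before the start site are printed for the members the results turn on, 5′ to 3′ on the plus strand, with the matches to these CCAAT and homology region motifs on either strand in capitals, where ATTGG is the box read on the other strand. KIF20A (chr5:138178862-138179111) and NCAPG (chr4:17810729-17810978) are the members called with all 6 libraries, ESPL1 (chr12:53268049-53268298), CDC25B (chr20:3786701-3786950) and CDK1 (chr10:60778081-60778330) are called in either direction without NC library 3, and CCNB1 (chr5:69166900-69167149) was not called.
KIF20A: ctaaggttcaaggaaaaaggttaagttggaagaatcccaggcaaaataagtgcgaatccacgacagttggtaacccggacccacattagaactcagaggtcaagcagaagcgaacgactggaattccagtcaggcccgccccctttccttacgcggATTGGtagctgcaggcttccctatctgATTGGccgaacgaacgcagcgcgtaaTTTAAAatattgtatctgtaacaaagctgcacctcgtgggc
NCAPG: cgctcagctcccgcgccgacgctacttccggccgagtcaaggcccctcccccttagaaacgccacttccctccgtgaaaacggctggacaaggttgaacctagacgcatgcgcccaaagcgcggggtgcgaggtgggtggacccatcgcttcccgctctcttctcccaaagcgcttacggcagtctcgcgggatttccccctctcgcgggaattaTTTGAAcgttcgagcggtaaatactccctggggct
ESPL1: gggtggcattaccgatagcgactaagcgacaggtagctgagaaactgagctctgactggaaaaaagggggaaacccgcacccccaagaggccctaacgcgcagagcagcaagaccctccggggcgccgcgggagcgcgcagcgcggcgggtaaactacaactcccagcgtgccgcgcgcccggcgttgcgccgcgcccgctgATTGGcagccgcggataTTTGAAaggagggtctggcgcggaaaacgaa
CDC25B: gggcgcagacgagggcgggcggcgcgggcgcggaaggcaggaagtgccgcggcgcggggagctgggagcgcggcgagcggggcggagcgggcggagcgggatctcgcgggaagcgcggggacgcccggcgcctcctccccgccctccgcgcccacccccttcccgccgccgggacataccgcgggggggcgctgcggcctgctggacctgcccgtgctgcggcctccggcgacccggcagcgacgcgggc
CDK1: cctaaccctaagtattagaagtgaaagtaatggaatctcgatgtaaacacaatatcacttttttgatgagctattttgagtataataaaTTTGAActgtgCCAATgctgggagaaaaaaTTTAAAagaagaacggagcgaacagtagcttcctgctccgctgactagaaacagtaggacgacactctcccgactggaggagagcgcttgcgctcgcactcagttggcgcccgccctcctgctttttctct
CCNB1: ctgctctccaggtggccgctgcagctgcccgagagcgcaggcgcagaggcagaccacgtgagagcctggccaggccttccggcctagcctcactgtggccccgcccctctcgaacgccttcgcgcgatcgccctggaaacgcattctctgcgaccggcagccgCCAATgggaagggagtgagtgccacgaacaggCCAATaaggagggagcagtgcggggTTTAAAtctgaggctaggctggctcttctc
KIF20A, the gene that rose, and CCNB1, which was not called, each hold 2 CCAAT boxes upstream of 1 TTTAAA, at -94, -67 and -41 from the start site in KIF20A and at -87, -55 and -30 in CCNB1. NCAPG holds 1 TTTGAA at -35 and no CCAAT, and ESPL1 holds 1 of each, at -31 and -48. CDK1 holds all 3 motifs between -161 and -131. None of the 3 motifs is in the CDC25B stretch. KIF20A and CCNB1, alike in these motifs, differed in their calls, and that difference was not tested.

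KIF20A (ENSG00000112984, chr5:138178719-138187723, plus strand, GRCh38) encodes a kinesin of the central spindle that carries Aurora kinase complexes to the midzone and serves in cytokinesis. Its level was 7.48, 5.39 and 5.95 normalized CPM (counts scaled by TMM to the depth of each library, comparable between libraries but not between genes) in NC libraries 1 to 3 and 13.7, 13.4 and 11.5 normalized CPM in the labelled siRNA libraries. Every labelled siRNA library was above every NC library, and NC library 3 lay between the other NC libraries. The mean rose from 6.27 ± 1.08 (SD, n = 3) to 12.9 ± 1.21 (SD, n = 3), a log2 fold change of 1.03 (SE 0.18, 95% interval 0.61 to 1.46, edgeR adjusted p = 0.0378). Without NC library 3 the log2 fold change was 1.00 (SE 0.16, edgeR adjusted p = 0.000127). The ratio of its FPKM to that of KIF23, another kinesin of the central spindle, was 0.726, 0.431 and 0.472 in NC and 1.2, 1.2 and 1.02 in the labelled siRNA libraries, a ratio chosen after the values were seen. Relative to KIF20B, its nearest relative among the members, the FPKM ratio was 0.553 to 0.751 in NC and 1.08 to 1.42 in the labelled siRNA libraries. That pair was also chosen after the values were seen. Of the exonic bases of KIF20A, 5.05% are shared with genes on the other strand.

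The other 7 kinesins were KIF11, KIF14, KIF18A, KIF20B, KIF23, KIF2C and KIF4A, and none was called with all 6 libraries, at log2 fold changes from -0.39 (KIF11, the motor that pushes spindle poles apart) to 0.30 (KIF4A). KIF4A, a chromokinesin that shortens the midzone, had 7.75, 6.29 and 11.2 normalized CPM in NC and 9.51, 12.1 and 9.41 in the labelled siRNA libraries. NC library 3 lay among the labelled siRNA libraries, and NC libraries 1 and 2 lay below them. Its log2 fold change was 0.30 (edgeR adjusted p = 0.46) and 0.56 (SE 0.17, edgeR adjusted p = 0.0145) without NC library 3. KIF2C, which removes wrongly attached microtubules, had 13.9, 11.9 and 16.2 normalized CPM in NC and 14.1, 15 and 13.2 in the labelled siRNA libraries, with full overlap of the groups (log2 fold change 0.01, 95% interval -0.36 to 0.38). KIF20B stood at -0.00 (95% interval -0.29 to 0.29) and KIF23 at -0.06 (95% interval -0.37 to 0.25).

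NCAPG (ENSG00000109805, chr4:17810979-17844865, plus strand) encodes a non-SMC subunit of condensin I, the complex that compacts mitotic chromosomes. Its level was 13.1, 13.9 and 15.3 normalized CPM in NC and 8.88, 7.57 and 8.3 normalized CPM in the labelled siRNA libraries. The groups were well apart, and NC library 3 was the highest. The mean fell from 14.1 ± 1.1 (SD, n = 3) to 8.25 ± 0.657 (SD, n = 3), a log2 fold change of -0.77 (SE 0.15, 95% interval -1.12 to -0.43, edgeR adjusted p = 0.0433), and of -0.71 (SE 0.13, edgeR adjusted p = 0.00051) without NC library 3. In GENCODE 29, 33.1% of its exonic bases are shared with LCORL on the opposite strand, whose own log2 fold change was -0.29, and the strand setting of the counting is not given in the sources used here, so reads of the 2 genes there cannot be told apart.

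NCAPD2 and NCAPH, the other non-SMC subunits of condensin I, were not called lower. NCAPD2 had 58.7, 60.7 and 54.7 normalized CPM in NC and 67.5, 70.6 and 67.0 in the labelled siRNA libraries. All labelled siRNA libraries were above all NC libraries, opposite to NCAPG, with a log2 fold change of 0.24 (edgeR adjusted p = 0.22) and of 0.20 (SE 0.06, edgeR adjusted p = 0.0219) without NC library 3. NCAPH, the kleisin that joins them, had 8.04 to 9.35 normalized CPM in NC and 7.93 to 9.19 in the labelled siRNA libraries, with overlapping groups (log2 fold change 0.03). The FPKM ratio of NCAPG to NCAPD2 was 0.297, 0.306 and 0.373 in NC and 0.175, 0.143 and 0.165 in the labelled siRNA libraries, a ratio chosen after the values were seen. It did not overlap between the groups, at an exact permutation p of 0.1, the smallest that 3 libraries against 3 can give. Since NCAPG was lower and NCAPD2 higher in every labelled siRNA library, the ratio had to separate the groups. The choice of the pair thus fixed this p in advance. Of the pairs looked at, CDC25B over CDC25C overlapped, at 5.1 to 11.2 in NC and 6.8 to 11.5 in the labelled siRNA libraries (exact permutation p = 0.8).

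Of the SMC subunits, SMC2 had 36.0, 34.0 and 55.1 normalized CPM in NC and 31.2, 28.3 and 29.9 in the labelled siRNA libraries. The groups did not overlap, but NC library 3 lay far above the others, and the log2 fold change was -0.49 (edgeR adjusted p = 0.181) with it and -0.23 (SE 0.09, edgeR adjusted p = 0.0483) without it. SMC4, its partner, was at -0.03 (edgeR adjusted p = 0.923), and 25.6% of its exonic bases are shared with other genes. TOP2A, the topoisomerase that untangles sister chromatids, had 44.9, 48.8 and 58.4 normalized CPM in NC and 39.5, 38.2 and 40.2 in the labelled siRNA libraries. It was lower in every labelled siRNA library, at a log2 fold change of -0.37 (edgeR adjusted p = 0.151) and -0.25 (SE 0.08, edgeR adjusted p = 0.0168) without NC library 3. MKI67, the Ki-67 protein that coats mitotic chromosomes and is read as a proliferation marker, had 28.9, 32.1 and 22.6 normalized CPM in NC and 30.5, 28.5 and 28.0 in the labelled siRNA libraries. Its groups overlapped, and the 95% interval of its log2 fold change, -0.30 to 0.42, includes falls and rises of up to that size.

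**Figure D3:**
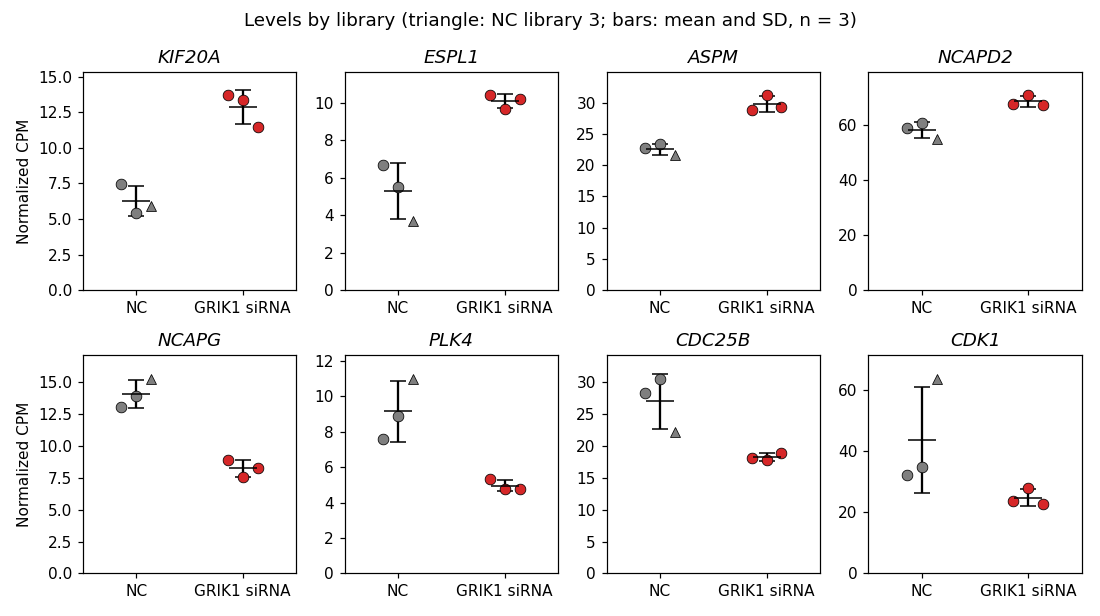
Normalized CPM (vertical axes, each starting at 0) of 8 members by library, with NC on the left and the labelled siRNA libraries on the right of each panel, and bars for mean and SD (n = 3). The panels show only members whose groups did not overlap, which held for 17 lower and 4 higher of the 59 members. Of all genes, 19.0% and 19.4% did not overlap in those directions. The triangle of NC library 3 is the lowest of the 6 values for ESPL1 (3.7), ASPM and NCAPD2, and the highest for CDK1 (63.8), NCAPG and PLK4.

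Among CDK1 and its regulators (CDK1, CCNA2, CCNB1, CCNB2, CDC25B and CDC25C), all 6 genes were below 0 with all 6 libraries, at a median of -0.45, and none was called. When NC library 3 was left out, 3 of the 6 were below 0, at a median of -0.21, and CDK1 and CDC25B were called lower. CDC25B (ENSG00000101224, chr20:3786772-3806121, plus strand), a phosphatase that starts CDK1 activation at the centrosome, had 28.3, 30.6 and 22.2 normalized CPM in NC and 18.1, 17.8 and 18.9 in the labelled siRNA libraries. Here NC library 3 was the lowest NC library and still above the labelled siRNA libraries. Its log2 fold change was -0.56 (SE 0.15, edgeR adjusted p = 0.0879) and -0.69 (SE 0.10, edgeR adjusted p = 3.06e-05) without NC library 3, and DESeq2 called it lower with either set of libraries. CDK1 (ENSG00000170312, chr10:60778331-60794852, plus strand) had 32.3, 34.9 and 63.8 normalized CPM in NC and 23.7, 27.9 and 22.8 in the labelled siRNA libraries. The groups were apart, but NC library 3 stood farther above the other NC libraries than these stood above the labelled siRNA libraries. Its log2 fold change was -0.82 (SE 0.27, edgeR adjusted p = 0.124) with NC library 3 and -0.44 (SE 0.10, edgeR adjusted p = 0.00255) without it.

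No cyclin was called with or without NC library 3. CCNB1, the main mitotic cyclin and the member of its group with the highest FPKM, had 24.5, 26.0 and 36.8 normalized CPM in NC and 24.7, 27.6 and 25 in the labelled siRNA libraries. NC libraries 1 and 2 lay close to the labelled siRNA libraries and overlapped with them, and the log2 fold change was -0.18 (edgeR adjusted p = 0.546) and 0.03 (95% interval -0.18 to 0.23) without NC library 3. CCNA2 and CCNB2 were at -0.34 and -0.09 with all 6 libraries and at 0.12 and 0.11 without NC library 3, with no call. CDC25C, which acts on CDK1 after CDC25B, had low levels, at 2.41, 2.33 and 3.7 normalized CPM in NC and 1.57, 2.24 and 1.41 in the labelled siRNA libraries. The groups were apart by a small margin (log2 fold change -0.70, edgeR adjusted p = 0.213).

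The factors FOXM1 and MYBL2, which drive transcription of this set of genes, had overlapping groups. MYBL2 had 17.7, 16.5 and 16.7 normalized CPM in NC and 17.8, 18.1 and 16.9 in the labelled siRNA libraries, a log2 fold change of 0.05 (95% interval -0.24 to 0.33). FOXM1 was at -0.06 (95% interval -0.41 to 0.28), and 15.9% of its exonic bases are shared with ITFG2 on the other strand.

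Of the 5 mitotic kinases PLK1, PLK4, AURKA, NEK2 and TTK, none was called with all 6 libraries, and the median log2 fold change was -0.19. The median turned to 0.05 without NC library 3, and PLK4 was called lower. PLK4 (ENSG00000142731, chr4:127880893-127899224, plus strand), which sets the number of centrioles, had 7.57, 8.89 and 11 normalized CPM in NC and 5.34, 4.79 and 4.74 in the labelled siRNA libraries. Every NC library was above every labelled siRNA library, at a log2 fold change of -0.89 (SE 0.20, 95% interval -1.34 to -0.43, edgeR adjusted p = 0.0573), and -0.73 (SE 0.17, edgeR adjusted p = 0.00298) without NC library 3. PLK1, which acts throughout mitosis, had 12.8 to 14.8 normalized CPM in NC and 13.9 to 15.7 in the labelled siRNA libraries, with a log2 fold change of 0.12 (95% interval -0.20 to 0.43). The FPKM ratio of PLK4 to PLK1 was 0.545, 0.703 and 0.916 in NC and 0.38, 0.325 and 0.364 in the labelled siRNA libraries, a pair chosen after the values were seen. AURKA, the kinase of spindle poles, had 16.3, 18.2 and 16.7 normalized CPM in NC and 13.7, 16.1 and 15.3 in the labelled siRNA libraries. Its groups were apart by a narrow margin (log2 fold change -0.19, edgeR adjusted p = 0.402). NEK2 and TTK were at -0.13 and -0.23 with all 6 libraries and turned to 0.05 and 0.10 without NC library 3, with overlapping groups and no call.

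Among the 10 checkpoint and anaphase genes (BUB1, BUB1B, BUB3, MAD2L1, CDC20, UBE2C, PTTG1, ESPL1, SGO1 and SGO2), the median log2 fold change was -0.13, with 7 below 0, and none was called with all 6 libraries. It turned to 0.05 without NC library 3, with 4 below 0, and BUB3 was called lower and ESPL1 higher. ESPL1 (ENSG00000135476, chr12:53268299-53293638, plus strand), the protease that cuts cohesin at anaphase, had 6.68, 5.48 and 3.7 normalized CPM in NC and 10.4, 9.65 and 10.2 in the labelled siRNA libraries. All labelled siRNA libraries lay above all NC libraries, among which NC library 3 was the lowest. Its log2 fold change was 0.94 (SE 0.23, 95% interval 0.40 to 1.47, edgeR adjusted p = 0.071) and 0.73 (SE 0.16, edgeR adjusted p = 0.00144) without NC library 3, and DESeq2 called it higher with either set of libraries. PTTG1, its inhibitor, had 37.2, 39.1 and 68.7 normalized CPM in NC and 40.9, 42.1 and 47.1 in the labelled siRNA libraries. NC library 3 was above the labelled siRNA libraries and NC libraries 1 and 2 below them, so the log2 fold change was -0.16 with it (edgeR adjusted p = 0.704) and 0.19 without it (edgeR adjusted p = 0.0953). The FPKM ratio of ESPL1 to PTTG1 was 0.0399, 0.0313 and 0.012 in NC and 0.0568, 0.0508 and 0.0484 in the labelled siRNA libraries, also a pair chosen after the values were seen.

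BUB3, which carries BUB1 and BUBR1 to kinetochores, had 142, 151 and 204 normalized CPM in NC and 113, 110 and 120 in the labelled siRNA libraries. The groups were apart, with a log2 fold change of -0.54 (SE 0.16, edgeR adjusted p = 0.107) and -0.36 (SE 0.05, edgeR adjusted p = 7.53e-05) without NC library 3. MAD2L1, the checkpoint protein that binds CDC20, had 15.9, 15.8 and 42.1 normalized CPM in NC and 13.1, 13.9 and 12.8 in the labelled siRNA libraries. Its log2 fold change of -0.89 (edgeR adjusted p = 0.196) became -0.26 (edgeR adjusted p = 0.0899) without NC library 3. SGO1, the protector of centromeric cohesin, had 4.54, 3.14 and 4.83 normalized CPM in NC and 3.22, 2.7 and 2.52 in the labelled siRNA libraries, with overlapping groups (log2 fold change -0.57, edgeR adjusted p = 0.203). BUB1, BUB1B, CDC20, UBE2C and SGO2 lay between -0.25 and 0.03, and between -0.11 and 0.25 without NC library 3, and were not called with either set of libraries.

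The 7 centromere and kinetochore genes (CENPA, CENPE, CENPF, NDC80, NUF2, SPC25 and KNL1) had a median log2 fold change of -0.28 and no call with all 6 libraries. Their median was -0.04 without NC library 3, and CENPF was called lower. SPC25, a subunit of the NDC80 complex that binds microtubules, had 2.32, 1.71 and 4.91 normalized CPM in NC and 1.65, 1.54 and 1.56 in the labelled siRNA libraries. It had the lowest log2 fold change of all members (-0.92, SE 0.42, edgeR adjusted p = 0.216), and without NC library 3 it stood at -0.34 (edgeR adjusted p = 0.461). NDC80 itself had 10.7, 13.6 and 15.5 normalized CPM in NC and 8.48, 11.4 and 11.2 in the labelled siRNA libraries, and the groups overlapped (log2 fold change -0.36, edgeR adjusted p = 0.297, and -0.22 without NC library 3). CENPF, a large protein of the outer kinetochore, had 39.4, 34.9 and 25.3 normalized CPM in NC and 26.8, 29.8 and 30.2 in the labelled siRNA libraries. NC library 3 was the lowest of all 6, and CENPF passed the test only without it (log2 fold change -0.36, SE 0.09, edgeR adjusted p = 0.0057), against -0.20 (edgeR adjusted p = 0.508) with it. CENPA, CENPE, NUF2 and KNL1 lay between -0.50 and 0.22, where -0.50 was that of KNL1, which stood at -0.00 without NC library 3.

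The chromosomal passenger complex (AURKB, INCENP, CDCA8 and BIRC5), which corrects attachments and then acts in cytokinesis, had 4 genes below 0, a median log2 fold change of -0.28 and no call in edgeR with or without NC library 3, where the median without it was -0.16. BIRC5, the survivin subunit, had 13.1, 15.6 and 26.1 normalized CPM in NC and 14.5, 13.2 and 13.6 in the labelled siRNA libraries, with overlapping groups (log2 fold change -0.41, edgeR adjusted p = 0.342), and its log2 fold change was -0.06 (edgeR adjusted p = 0.754) without NC library 3. AURKB, its kinase, was at -0.43 (edgeR adjusted p = 0.331) and -0.53 (edgeR adjusted p = 0.0841) without NC library 3.

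Of the 6 tested spindle microtubule proteins (TPX2, PRC1, HMMR, DLGAP5, CKAP2 and ASPM), 5 were below 0, with a median of -0.42 and no call with all 6 libraries, and 5 were below 0 with a median of -0.18 without NC library 3, where ASPM was called higher. ASPM, which focuses microtubules at spindle poles, had 22.7, 23.4 and 21.6 normalized CPM in NC and 28.8, 31.2 and 29.3 in the labelled siRNA libraries. It was the exception, with all labelled siRNA libraries above all NC libraries and NC library 3 near the others (log2 fold change 0.40, SE 0.12, edgeR adjusted p = 0.1, and 0.37, SE 0.09, edgeR adjusted p = 0.00525 without NC library 3). TPX2, the activator of AURKA, had 35.0, 30.5 and 31.0 normalized CPM in NC and 27.7, 29 and 31.6 in the labelled siRNA libraries, with overlap (log2 fold change -0.13, edgeR adjusted p = 0.527). PRC1, HMMR, DLGAP5 and CKAP2 lay between -0.48 and -0.42 with all 6 libraries and between -0.30 and -0.15 without NC library 3.

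The 4 cytokinesis genes (ANLN, ECT2, RACGAP1 and ARHGAP11A) had a median log2 fold change of -0.26 and no call with all 6 libraries, and a median of -0.04 without NC library 3, where ECT2 was called lower. ECT2, which activates RhoA at the cleavage furrow, had 42.3, 41.7 and 83.3 normalized CPM in NC and 36.8, 37.1 and 35.0 in the labelled siRNA libraries. NC library 3 was far above all others, and the log2 fold change of -0.62 (edgeR adjusted p = 0.205) became -0.21 (SE 0.08, edgeR adjusted p = 0.049) without it. ANLN, RACGAP1 and ARHGAP11A lay between -0.34 and -0.08 with all 6 libraries and between -0.06 and 0.04 without NC library 3.

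NC library 3 was the highest of the 6 libraries for 37 of the 59 members, against 35.5% of all genes, and the lowest for 8, against 35.8%. The median of the members in it was 0.33 on the log2 scale above the mean of NC libraries 1 and 2, whereas the median over all genes was -0.03. The labelled siRNA libraries had member medians of -0.07, -0.09 and -0.04 on the same scale. The members farthest above were MAD2L1 (1.41), SPC25 (1.29), KNL1 (1.14) and CCNA2 (1.08), and those farthest below were ESPL1 (-0.72), CENPF (-0.56) and MKI67 (-0.43). These come from different roles. Among the longest genes, MKI67 (12845 bases) and CENPF (11646 bases) lay below and KNL1 (10250 bases) lay above. Of the 20 members with the longest exonic size, NC library 3 was highest for 9 and lowest for 7. Of the 19 of middle size it was highest for 13 and lowest for 1, and of the 20 shortest highest for 15 and lowest for 0. The median deviations were 0.08, 0.56 and 0.39 in that order, so they did not change evenly with size. Spearman's rho between exonic size and the log2 deviation of NC library 3 was -0.32 over the 59 members and -0.01 over 15130 genes. The points share the same 3 NC libraries, so this is a description, and its part in the results was not tested.

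**Figure D4:**
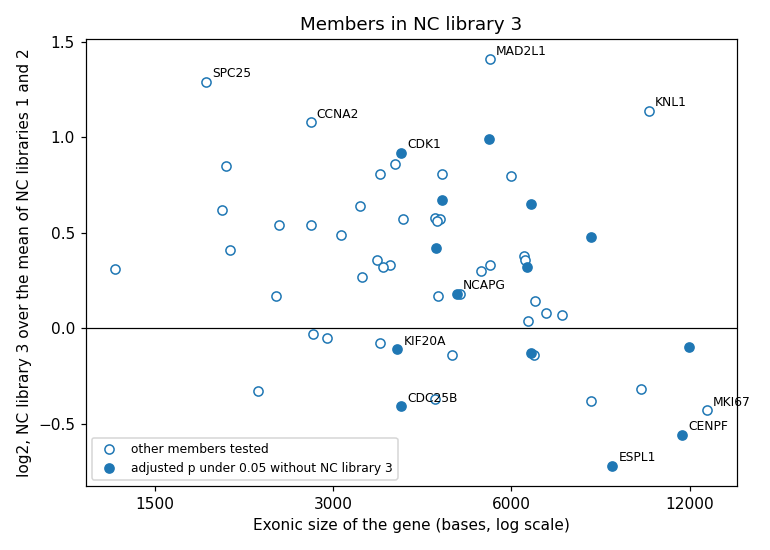
Log2 deviation of NC library 3 from the mean of NC libraries 1 and 2 (vertical axis) against the exonic size of each of the 59 tested members in bases (horizontal axis, log scale). Filled points, the 14 members called without NC library 3, include the lowest point, ESPL1 at -0.72, while MAD2L1 is the highest at 1.41.

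Other genes of mitosis were listed apart from the members. Of the 110 such genes tested, 2 fell and 3 rose in edgeR with all 6 libraries, where 1.48% and 1.61% of all genes did, at a median of -0.14. With NC library 3 left out, 21 were called lower and 19 higher, where 18.3% and 16.9% of all genes were, with a median of -0.03. LMNB1, a nuclear lamin taken apart at mitotic entry, had 15.8, 14 and 11.3 normalized CPM in NC and 7.23, 7.95 and 6.59 in the labelled siRNA libraries (log2 fold change -0.92, edgeR adjusted p = 0.0444). TFDP1, the partner of E2F factors, was at -0.56 (edgeR adjusted p = 0.0448). The genes that rose were SPAG5, a spindle protein also known as astrin, NIPBL, the loader of cohesin, and CEP192, a scaffold of the centrosome. SPAG5 had 10.4, 10.4 and 12.5 normalized CPM in NC and 20.3, 19.1 and 19.0 in the labelled siRNA libraries, with no overlap (log2 fold change 0.81, edgeR adjusted p = 0.0368). NIPBL was at 0.70 (edgeR adjusted p = 0.0352) and CEP192 at 0.68 (edgeR adjusted p = 0.0433).

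By complex, the 29 other kinetochore and centromere subunits had 25 genes below 0, a median of -0.35 and no call with all 6 libraries. Leaving out NC library 3, 19 were below 0, the median was -0.16, and 10 were called lower and 1 higher, where 18.3% and 16.9% of all genes were called. CENPK, of the constitutive centromere network, had the same log2 fold change of -0.71 with and without NC library 3 (edgeR adjusted p = 0.0578 and 0.000377). The 16 genes of the anaphase promoting complex had no call with all 6 libraries and a median of -0.09, which turned to 0.04 without NC library 3, with 1 called lower and 4 higher. The 13 genes of cohesin and condensin II had 1 call, NIPBL, and a median of -0.05, which turned to 0.11 without NC library 3, with 1 called lower and 4 higher. The 32 other late cell cycle genes had a median of -0.13, with LMNB1 lower and SPAG5 higher, and a median of -0.06 without NC library 3, with 5 called lower and 6 higher. The 8 genes of centriole duplication had 2 below 0, a median of 0.14 and 1 call, CEP192, and without NC library 3 a median of 0.08 with 0 called lower and 2 higher, while PLK4, which drives that step, stood below 0. STIL, the partner of PLK4, was at -0.45 (edgeR adjusted p = 0.142) and SASS6 at 0.06 (edgeR adjusted p = 0.777). The 12 genes of MuvB and DREAM had a median of -0.32 and 1 call, TFDP1, and without NC library 3 a median of -0.11, with 4 called lower and 2 higher.

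For comparison, 18 genes of replication licensing, which act before mitosis, had 6 that fell with all 6 libraries (MCM3, MCM4, MCM5, CDC6, ORC6 and CDC45), all 18 below 0 and a median of -0.66. Of all genes, 1.48% were called lower and 51.4% were below 0, at a median of -0.02. Without NC library 3, 13 were called lower and none higher, against 18.3% and 16.9% of all genes. The median was then -0.63, against 0.01 over all genes. MCM5, a subunit of the replicative helicase, had 29.9, 26.9 and 24.1 normalized CPM in NC and 14.9, 13.4 and 15.6 in the labelled siRNA libraries (log2 fold change -0.88, edgeR adjusted p = 0.031). The medians of the mitosis genes and of the licensing genes are given side by side, and their difference was not tested. Both lists share the same 6 libraries.

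In GENCODE 29, 24 of the 60 members share exonic bases with another gene, and 9 share over 10%. The largest shares were those of NUSAP1 (62.2%) and PRC1 (58.4%), both mainly with a gene on the same strand, followed by NCAPG (33.1%) and SMC4 (25.6%). SGO1, FOXM1, ARHGAP11A, PLK1 and BUB1B share 17.7%, 15.9%, 15.5%, 12.5% and 10.2%. Of copies that could take reads, ARHGAP11B had 12 to 44 counts and AURKAP1 1 to 15 counts, while KIF4B, PTTG2, CCNB2P1, BUB3P1 and RACGAP1P1 had at most 1 count and CDC20P1 at most 3. Values of the members named in these sentences are uncertain to the extent that the counting split or dropped shared reads.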

How the data were processed

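RNA of U87-MG cells was sequenced in 3 NC libraries and 3 libraries labelled GRIK1 siRNA. Libraries were made with a VAHTS Universal V8 kit. The submitters' processing notes name cutadapt 1.9.1, HISAT2, HTSeq and GRCh38. The strand setting is not given in the sources used here. The authors deposited whole-number counts per gene, without normalization, for 61806 genes. The FPKM values the authors deposited equal the count over exonic size and library total in 100% of values (tolerance 0.01). Total counts were 11099909 to 14006968, and no pair of libraries agreed within sampling noise (chi-square per gene of at least 2.29). 0 value columns were left unassigned. The deposited GO and KEGG annotation was not used. The sum of the marker list of the line is not given, since its genes are described singly, and that of 1 other list is not reported here.

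Counts of genes with a mean FPKM of at least 0.5 (15870 genes) were scaled by TMM and tested in R 4.3.3 with the quasi-likelihood test of edgeR 4.0.16, without a block, with Benjamini-Hochberg adjustment over all genes tested. The study's methods name no test for these libraries. DESeq2 1.42.0 and limma 3.58.1 were alternatives, with other scalings and filters, a replicate block and each library left out in turn. Same-numbered libraries of the groups did not deviate together (correlations of -0.0267, 0.0252 and -0.0207). The deviations were taken from group means that include NC library 3, which stood apart, so these correlations can miss a weaker pairing. The numbers were not used as pairs in the main fit, and the fit with a replicate block is given below. Python 3.11.15 and pandas 2.3.3 were used for tables and motif counts. On simulated counts with 200 of 15870 genes changed, edgeR recovered 171 with 7 false calls, DESeq2 163 with 5, and limma 174 with 3. The simulation used a dispersion of 0.01, absolute log2 fold changes of 1 or more and no library that stood apart. The common dispersion of the 6 libraries was 0.0391, so these counts do not give the recovery or the false calls in these data.

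The members and lists were chosen with earlier results of these data known. Values in every library are given for members with an adjusted p under 0.05 (at most 12), for the 8 lowest and 4 highest log2 fold changes, for the member with the highest mean FPKM of each role, for members that failed the filter and, added after the data were seen, for members called without NC library 3. Further genes were named after their values were seen. Intervals are 95% intervals of the edgeR fit.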

Additional observations from a re-analysis of the deposited data

How the results depend on the processing

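With all 6 libraries and edgeR, 1 member was called lower, 1 higher and 1 at both thresholds. DESeq2 called 3 lower and 2 higher. No filter on low values gave 3 lower and 2 higher, and the share over all genes was not counted for that setting. limma-trend on log2(FPKM + 1) called 0 lower, 1 higher (KIF20A) and 0 at both thresholds, against 0.882%, 1.68% and 0.712% of all genes. A replicate block gave 0 lower, 0 higher and 0 at both thresholds, with 7 members lower (11.9%) and 3 higher (5.08%) at an unadjusted p under 0.05 (edgeR), against 10.2% and 10.8% of all genes, and 0 of all 15870 genes called. Leaving out each library in turn gave 0 to 9 members lower, 0 to 5 higher and 0 at both thresholds. The values of 9 and 5 came without NC library 3, and leaving out any other single library left 0 genes called of 15870. Without NC library 3, DESeq2 called 6 lower and 3 higher, RLE scaling 8 lower, 5 higher and 0 at both thresholds, and upper-quartile scaling 9 lower, 5 higher and 0 at both thresholds. The shares over all genes under RLE and upper-quartile scaling without NC library 3 were not counted, so these counts cannot be set against a background.

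KIF20A kept an adjusted p under 0.05 without NC library 3, and reached 0.0677 to 0.227 with any other single library left out and 0.0966 with the block, at log2 fold changes of 0.94 to 1.18 and 1.04. NCAPG kept it without NC library 3 too, and reached 0.0769 to 0.24 with any other single library left out, 0.127 with the block and 0.0555 in limma, at log2 fold changes of -0.83 to -0.71 when a library was left out and -0.77 with the block. Over 26 named members and 413 values under these alternatives, 0 called values changed direction, 13 lost their call, 48 gained one, and 11 uncalled values changed sign. KIF20A and NCAPG were the only members called in the main fit, so only their calls could be lost or change direction. Some of the others were named because they were called without NC library 3, and several alternatives leave that library out. Gained calls in those fits thus followed from the choice of members. The cause of the lost calls was not tested.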
